A study of Mus musculus with 10 samples.

Results

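This section compares regulatory T (Treg) cells sorted from Hepa1-6 tumours with Treg cells sorted from lymph nodes (LN), over all genes with enough reads to test. It rests on 8 of the 10 libraries of the series, chosen by their titles: 4 Hepa1-6 tumour Treg libraries and 4 LN Treg libraries. All mice were Foxp3YFP-cre, a strain in which a yellow fluorescent protein fused to Cre is made by cells that express Foxp3. The LN donors were tumour-free and untreated. For the tumour group, Hepa1-6 cells, a mouse hepatoma line, were injected under the skin, and tumour-infiltrating lymphocytes were taken on day 23. Tumour Treg cells were then sorted by flow cytometry from isolated CD4+ T cells. The other 2 libraries come from E.G7 tumours, a mouse T lymphoma line, on day 21; they add to the shared estimate of spread, and their values are given beside the others where useful. The question put by the study was which T helper subset, if any, the tumour Treg cells are like, with lymph nodes as the control tissue. Tissue, tumour bearing and the steps of tumour dissociation differ together between the groups and cannot be told apart.

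Treg cells are CD4+ T cells that hold back immune responses, and the transcription factor Foxp3 defines them. In lymph nodes most are resting cells that recirculate and survive on interleukin signals. Treg cells in tissues and tumours are typically activated, carry receptors for inflamed tissue and take up fuel from a medium poor in oxygen and nutrients. A sorted cell suspension from a tumour can also carry RNA of macrophages, dendritic cells and tumour cells, so the genes were set apart by their level in LN.

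Levels are CPM, read counts relative to the library total, with libraries scaled by the trimmed mean of M values (TMM), and differences are log2 changes, Hepa1-6 against LN. A gene was called higher or lower where edgeR's quasi-likelihood test gave a Benjamini-Hochberg adjusted p under 0.05. Genes with an LN mean of at least 10 CPM are termed well expressed in LN. Total counts ranged from 22665563 to 24472849 in LN and from 26224286 to 26665325 in Hepa1-6. Nothing in the labels says that the replicates came from separate mice, and the p-values then reflect library-to-library spread alone, possibly technical. In bulk libraries, fewer cells of a type and less RNA per cell cannot be told apart. Positions are from the deposited count table (mm10).

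The labelled cell type was checked first. Foxp3 (chromosome X, 7573644 to 7595245) was at 113, 107, 119 and 94.1 CPM in LN and 97.3, 82.6, 74.2 and 73.8 CPM in Hepa1-6. The groups overlap, and Foxp3 was called lower (log2 change -0.40, edgeR adjusted p = 0.00138), a call lost when libraries were scaled to T cell genes (log2 change -0.03). Its exons overlap those of other genes, Flicr among them, and no source used here gives the strand setting of the counting, so its level is uncertain. The same holds for Actn1, Anxa2, Anxa4, Arhgap20, Bcl2, Bhlhe40, Ccna2, Ccnd2, Cd74, Dusp5, Dzip1, Fn1, Gimap7, Gucy1a1, Hspa8, Il6ra, Itgav, Krt8, Lilr4b, Pik3ip1, Pkm, Psma5, Rapgef4, Rgs16, Rpl4, Slc16a5, Slc7a10, Spp1, Thbs1, Zfp36 and Zfp974, described below, whose exons overlap those of other annotated genes. Il2ra, the high-affinity interleukin-2 receptor chain that Treg cells carry, was at 584 ± 28.3 CPM in LN and 607 ± 26.2 CPM in Hepa1-6 (SD, n = 4) and was not called. Cd4 was at 759 ± 34.8 and 618 ± 22.1 CPM, a log2 change of -0.30 that turned to 0.084 with T cell gene scaling. Cd4 and Cd3e are among the genes that set this scaling, so their values under it are not independent of it. Cd3e, a T cell receptor chain, was at 579.8 ± 25.9 and 482 ± 34.8 CPM, and Ptprc, the leukocyte antigen CD45, at 2844 ± 85.3 and 1932 ± 57.1 CPM; both were called lower, and Cd3e turned to 0.11 with T cell gene scaling. Cd8a, the marker of cytotoxic T cells that a CD4+ sort should lack, was at 2.49, 1.31, 1.97 and 3.30 CPM in LN and 128, 131, 128 and 135 CPM in Hepa1-6, without overlap.

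Markers of other cells were far higher in the tumour libraries. The summed level of 17 macrophage and neutrophil markers was 46.7 to 65.4 CPM in LN and 4423 to 4781 CPM in Hepa1-6, and all 17 were called higher. S100a9 and Ly6g, both neutrophil genes, had no count in LN. The 12 dendritic cell markers, MHC class II genes included, summed to 161 to 180.3 CPM in LN and 9531 to 9912 CPM in Hepa1-6. All 12 were called higher, and Batf3 had no LN count. Most of the Hepa1-6 sum came from Cd74 (4906 CPM), H2-Ab1 (2143 CPM), H2-Aa (1256 CPM) and H2-Eb1 (1229 CPM). The other members lay from 4.79 CPM (Clec9a) to 87.6 CPM (Itgax). The 16 hepatoma markers summed to 18.9 to 24.5 CPM in LN and 2887 to 2932 CPM in Hepa1-6. Of these markers 8 were tested and all 8 were higher, while the untested ones lay under 1 CPM in Hepa1-6 as well. Trf was the largest member in Hepa1-6, at 1250 ± 53.4 CPM. It was at 118 and 112 CPM in E.G7, where the list summed to 126 to 131 CPM. Apob, Serpina1a, Serpina1b, Krt19 and H19 had no LN count, and Serpina1a, H19 and Apoc3 none in Hepa1-6. The 10 markers of CD8 T and NK cells summed to 29.7 to 34.4 CPM and 516 to 556 CPM, with 9 of 10 higher, and the NK cell receptor gene Ncr1 had no LN count. Stromal and endothelial markers (13) summed to 223 to 240.04 CPM and 1118 to 1209 CPM. Of these markers 11 of 12 tested were higher, Pecam1 was lower, and Col3a1, Dcn, Lum and Vwf had no LN count. Pecam1 held most of the LN sum (228 ± 8.35 CPM) and Fn1 most of the Hepa1-6 sum (877 ± 45.1 CPM). Erythroid and platelet markers (8) summed to 2.004 to 4.66 CPM and 77.8 to 87.7 CPM, with 6 of 7 tested higher and no LN count for Ppbp. Mast cell and basophil markers (8) summed to 6.32 to 8.75 CPM and 29.2 to 54.2 CPM, all 8 higher, with Mcpt4, Mcpt8, Fcer1a, Ms4a2, Tpsb2 and Cma1 at no LN count. The 10 B cell markers went the other way, from 836 to 952 CPM in LN to 375 to 448 CPM in Hepa1-6, with 3 of 9 tested higher and 3 lower. The 14 genes common to T cells summed to 9536 to 10471 CPM in LN and 7558 to 7741 CPM in Hepa1-6, with 2 higher and 10 lower. The part of other cells' RNA in the changes below was not tested. The LN and Hepa1-6 libraries did not overlap for any of these 9 sums. Many tested markers were under 1 CPM in LN, among them 13 macrophage and neutrophil, 10 stromal and endothelial and 7 CD8 T and NK cell markers. So were 5 hepatoma and 5 dendritic cell markers. A gene this low in LN can pass the filter through a tumour group alone, so its direction is fixed in part. Of all tested genes under 1 CPM in LN, 47.6% were called higher.

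**Figure D1:**
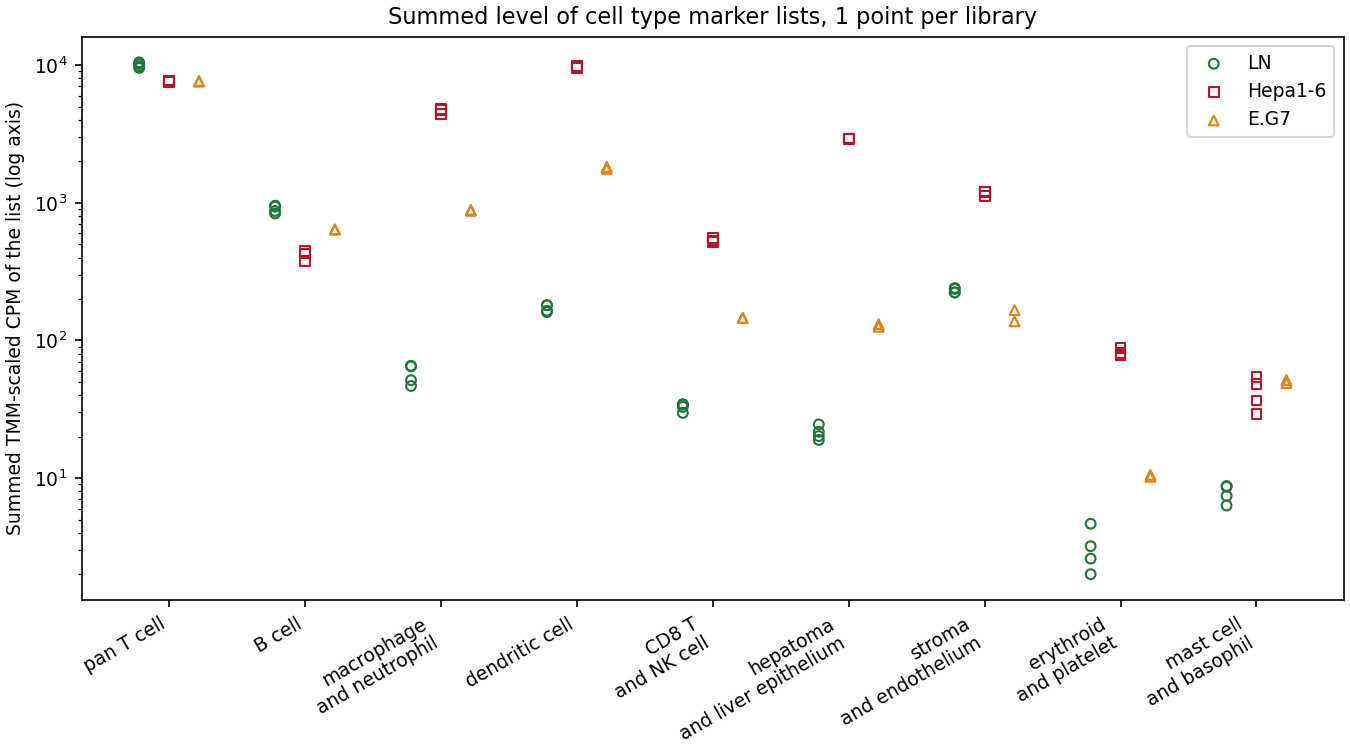
Summed TMM-scaled CPM (log axis) of each cell type marker list, 1 point per library for LN, Hepa1-6 and E.G7. The macrophage and neutrophil sum is 46.7 to 65.4 CPM in LN and 4423 to 4781 CPM in Hepa1-6. The T cell sum is lower in Hepa1-6, at 9536 to 10471 CPM in LN and 7558 to 7741 CPM in Hepa1-6.

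Among genes well expressed in LN, sugar uptake and cell division genes were part of the increase. The promoters of 4 such genes are shown, with the short motifs counted here. They were taken in order of log2 change among called list members, and genes without a match in the promoter were passed over. Each of the 4 therefore holds its motif by choice. The sequences are the 250 bases upstream of the RefSeq transcript start (GRCm38.p6), 5′ to 3′ on the strand of the gene. Capitals mark ACGTG, the core that hypoxia-inducible factors bind, in Slc16a3 (lactate exporter, chr11:120948817-120949066, plus strand), Slc2a1 (glucose importer, chr4:119108495-119108744, plus strand) and Pgam1 (glycolytic enzyme, chr19:41911621-41911870, plus strand). In Top2a (DNA topoisomerase of dividing cells, chr11:99024190-99024439, minus strand) they mark CCAAT, the NF-Y box, and TTTGAA, the cell cycle homology region, each on either strand.
Slc16a3: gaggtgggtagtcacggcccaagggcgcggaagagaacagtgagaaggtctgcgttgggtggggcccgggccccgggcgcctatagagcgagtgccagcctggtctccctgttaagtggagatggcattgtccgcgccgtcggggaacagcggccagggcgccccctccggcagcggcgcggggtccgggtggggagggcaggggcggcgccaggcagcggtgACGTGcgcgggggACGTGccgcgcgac
Slc2a1: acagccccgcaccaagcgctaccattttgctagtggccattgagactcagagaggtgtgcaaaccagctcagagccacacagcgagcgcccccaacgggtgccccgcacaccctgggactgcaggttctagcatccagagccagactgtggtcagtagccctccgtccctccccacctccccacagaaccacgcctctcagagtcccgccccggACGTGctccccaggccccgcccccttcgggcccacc
Pgam1: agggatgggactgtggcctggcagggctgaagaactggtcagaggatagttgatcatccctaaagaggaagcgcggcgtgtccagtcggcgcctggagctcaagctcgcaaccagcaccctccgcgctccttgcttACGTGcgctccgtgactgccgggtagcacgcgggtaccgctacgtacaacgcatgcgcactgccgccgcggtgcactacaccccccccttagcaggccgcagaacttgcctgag
Top2a: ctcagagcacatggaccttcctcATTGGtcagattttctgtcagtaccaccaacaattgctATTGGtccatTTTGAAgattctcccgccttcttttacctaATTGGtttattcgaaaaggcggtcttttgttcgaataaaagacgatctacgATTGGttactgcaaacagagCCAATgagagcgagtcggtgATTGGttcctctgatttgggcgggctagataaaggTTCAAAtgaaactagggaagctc
The Slc16a3 window holds 2 copies of ACGTG, those of Slc2a1 and Pgam1 1 each, and the Top2a window 6 copies of CCAAT and 2 of TTTGAA. Of 37 glycolysis and hypoxia genes called higher at any LN level, 33 had a promoter in the RefSeq table, and 21 of these (63.6%) held ACGTG or its reverse CACGT, against 18.5% of all 27025 genes in it. Of 41 replication and mitosis genes called higher, 34 had a promoter; 24 (70.6%) held CCAAT or ATTGG, against 37.5% of all genes, and 8 (23.5%) held TTTGAA or TTCAAA, against 18.3%. Among the 15 genes with the largest rises at 10 CPM or more in LN, 13 had a promoter: the AP-1 site TGACTCA or TGAGTCA was in those of Anxa2 and Fgl2 (15.4%, against 5.16% of all genes) and the CRE TGACGTCA in that of Errfi1 (7.69%, against 1.77%). Counted per window, ACGTG was in 48% of 50 windows, against 16.6% of all 32851. Hypoxia genes are listed for their response to low oxygen, so their share of this core describes the list and not these data. Genes called higher were not compared with uncalled or other expressed genes. A match is a string in a window and was not tested as a binding site.

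Most tested genes differed between tumour and LN Treg cells. Of 20068 genes, 7419 (37.0%) were higher and 6237 (31.1%) lower in Hepa1-6, 68.0% called in all. The first principal component of log2 CPM over the 8 libraries took 88.2% of the variance and separated the groups. How far genes moved depended on their level in LN, and the direction of the calls on the scaling: of called genes 54.3% were higher with TMM, 45.0% with upper-quartile scaling and 74.4% with scaling to 14 T cell genes. The median change of all tested genes was 0.04, -0.13 and 0.42 under these scalings.

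Genes well expressed in LN changed often but mostly little. Of 8763 such genes, 2982 (34.0%) rose and 3641 (41.5%) fell, 75.6% in all, and 2140 were not called. Only 771 rose and 861 fell by at least 2-fold, and 67 rose and 48 fell by at least 8-fold. The median change was -0.07, and the interquartile range ran from -0.50 to 0.39. All 4 Hepa1-6 libraries lay above all 4 LN libraries for 2739 genes (31.3%) and below them for 3327 (38.0%). The share of called genes that rose in this class was 45.0% with TMM, 32.4% with upper-quartile and 73.3% with T cell gene scaling; 191 genes called in 1 direction were called in the other with the last. For 404 of the 8763 the 95% interval of the change lay within 0.2 of no change on the log2 scale. Ly6e (2839 ± 140.1 against 2834 ± 71.9 CPM) and Akap13 (1266 ± 94.8 against 1269 ± 29.1 CPM, SD, n = 4) were the closest to equal of the 10 most abundant of these. Their log2 changes moved to 0.38 (Ly6e) with T cell gene scaling and -0.18 (Akap13) with upper-quartile scaling.

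Genes from 1 to 10 CPM in LN numbered 5100. Of these, 1485 (29.1%) rose and 1885 (37.0%) fell, 66.1% in all, with a median change of -0.20; 1044 rose and 1315 fell by at least 2-fold. The 5 largest rises here were in Trf, Arg1, H2-Ab1, Lilr4b and Ccl4. Trf, the iron carrier transferrin of liver, rose from 1.03, 2.62, 1.69 and 1.94 CPM to 1304, 1261, 1258 and 1176 CPM. In E.G7 it was at 115 ± 3.63 CPM (SD, n = 2). Arg1, the arginase of tumour myeloid cells, rose from 2.73, 2.58, 2.65 and 2.68 CPM to 935, 929.7, 950.5 and 1035 CPM, and was at 5.17 ± 2.26 CPM in E.G7 (SD, n = 2). H2-Ab1, an MHC class II chain of antigen-presenting cells, rose from 6.68, 6.13, 4.42 and 7.41 to 2066, 2090.2, 2278 and 2139 CPM. Lilr4b, an inhibitory receptor of myeloid cells, and Ccl4, a chemokine of activated lymphocytes and macrophages, rose by 8.85 and 8.39 on the log2 scale. The groups did not overlap for any of these 5 genes, as the rule that chose them requires. The marker sums given above moved with these genes. The part of other cells' RNA was not tested.

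Genes under 1 CPM in LN are a description, since the class itself sets the LN level and a gene passes the filter on low counts through a tumour group. Of 19151 such genes with any count, 6205 were tested; 2952 (47.6%) were called higher and 711 (11.5%) lower, 59.0% in all, with a median of 1.06. In Hepa1-6, 2215 reached 1 CPM, 622 reached 10 CPM and 69 reached 100 CPM. Of the 622, 96 also reached 10 CPM in E.G7 and 233 stayed under 1 CPM there. A total of 928 tested genes had no LN count, which allows a level of up to 0.0294 CPM over the 4 libraries (3 counts; counting error only), and 121 of these reached 10 CPM in Hepa1-6. Setting the class from LN replicates 1 and 2 and comparing Hepa1-6 with LN replicates 3 and 4 gave 5878 genes, 2733 higher and 515 lower. At the limit, Rasl11a (0.997 CPM in LN, 3.56 in Hepa1-6) and Svip (0.997 and 1.30) lay just under 1 CPM, and Tomt (1.00 and 0.946) and Vwa3b (1.00 and 0.516) just over it.

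**Figure D2:**
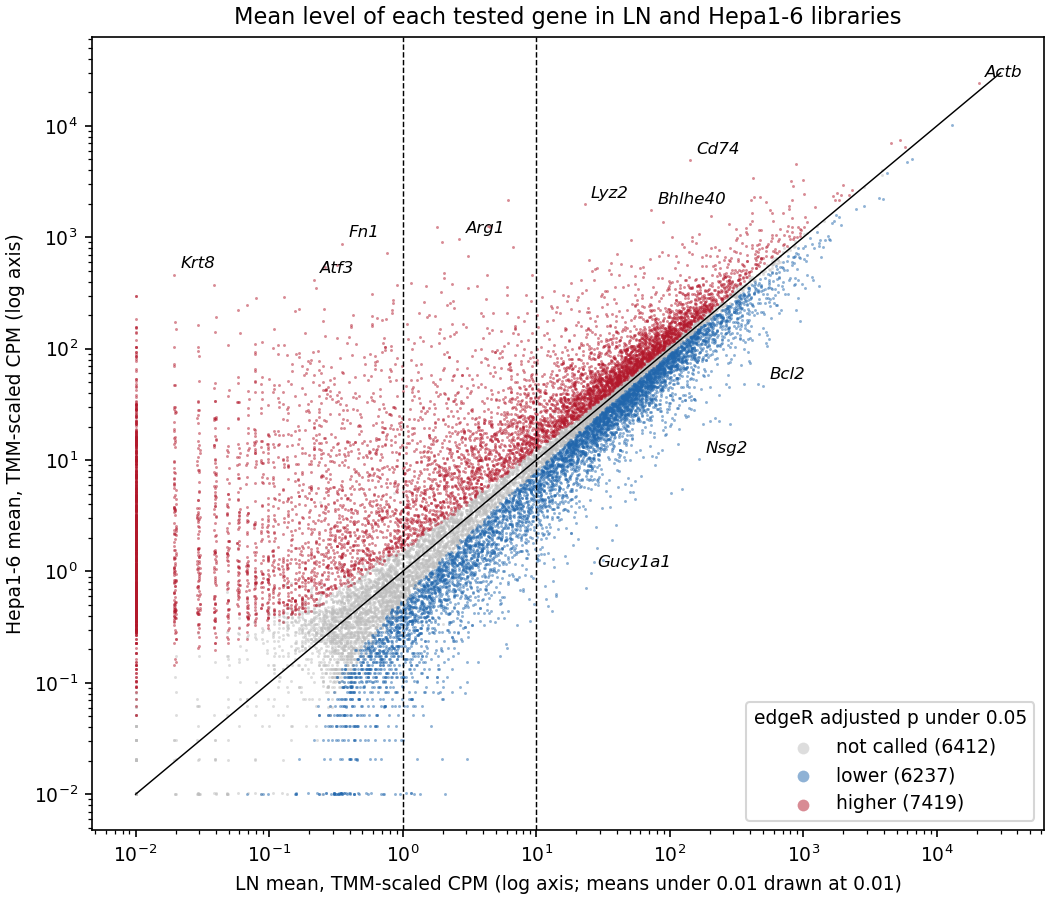
Mean TMM-scaled CPM of each of the 20068 tested genes in LN (x) and Hepa1-6 (y), both log axes, with means under 0.01 drawn at 0.01; red points were called higher, blue lower, grey neither, and dashed lines mark 1 and 10 CPM in LN. Genes left of 1 CPM reach as much as 877 CPM (Fn1) in Hepa1-6, while most genes right of 10 CPM lie close to the line of equality.

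These genes made up a small, steady part of each tumour library. They took 0.292% ± 0.015 of counts in LN, 3.46% ± 0.0469 in Hepa1-6 (SD, n = 4) and 1.12% ± 0.0188 in E.G7 (SD, n = 2). Genes well expressed in LN took 97.7% ± 0.0799, 91.5% ± 0.135 and 95.6% ± 0.072. The Hepa1-6 share ranged from 3.43% to 3.53% over the 4 libraries. The 50 most counted of the low genes held 33.4% of that share's counts, and 122 genes held 50% of them.

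The 10 highest of these in Hepa1-6, by the rule, were Krt8, Krt18, Alb, Fn1, Thbs1, Tgfbi, Spp1, C1qb, Ccl6 and Atf3. Krt8 and Krt18 encode keratins of epithelial cells. Krt8 (chromosome 15, 101996698 to 102004482) was at 0, 0.0385, 0 and 0.0388 CPM in LN and 442, 446, 478 and 484 CPM in Hepa1-6, and at 0.129 ± 0.0270 CPM in E.G7 (SD, n = 2). Krt18 was at 0.264 ± 0.138 and 536 ± 19.3 CPM (SD, n = 4). Alb, serum albumin of hepatocytes (chromosome 5, 90460897 to 90476602), was at 0.0395, 0.0771, 0 and 0.0388 CPM in LN and 375, 376, 355 and 374 CPM in Hepa1-6, and at 0.0553 ± 0.0258 CPM in E.G7 (SD, n = 2). Hepa1-6 libraries alone of the 3 groups held Krt8 and Alb above 1 CPM.

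Fn1, the matrix protein fibronectin (chromosome 1, 71585520 to 71653200), was at 0.395, 0.270, 0.442 and 0.311 CPM in LN and 916, 888, 893 and 812 CPM in Hepa1-6. Thbs1, a matrix protein that activates TGF-beta, had no count in 1 LN library and up to 1.24 CPM in the others, and 746, 715, 699 and 729 CPM in Hepa1-6. Tgfbi and Spp1, secreted adhesion proteins, were at 348 ± 13.2 and 313 ± 6.08 CPM in Hepa1-6 (SD, n = 4). Of myeloid genes, C1qb, a complement subunit made by macrophages, was at 0.632, 0.539, 0.803 and 1.67 CPM in LN and 369, 366, 368 and 388 CPM in Hepa1-6, and the chemokine gene Ccl6 at 0.324 ± 0.135 and 559.7 ± 27.6 CPM. Atf3, a stress-induced transcription factor, was at 0.0790, 0.462, 0.241 and 0.0776 CPM in LN and 408, 431, 416 and 413 CPM in Hepa1-6, and at 61.02 ± 2.66 CPM in E.G7 (SD, n = 2). Every Hepa1-6 library exceeded every LN library for these 10 genes by more than 100-fold. A wide gap follows from the choice of genes, by a low LN mean and the highest Hepa1-6 means.

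The spread among the 4 Hepa1-6 libraries was measured by level and LN class. Among genes of 100 to 1000 CPM in Hepa1-6, the median coefficient of variation over the 4 libraries was 5.85% for genes under 1 CPM in LN (69 genes), 4.69% for those of 1 to 10 CPM (68) and 4.61% for those well expressed in LN (2226). Among the LN libraries it was 5.21% (2074 genes). On the second principal component Hepa1-6 replicate 4 stood at -57.4, and the other Hepa1-6 libraries lay from 1.93 to 34.7 and the LN libraries from -6.33 to 7.26.

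The 15 largest rises among genes well expressed in LN included Lyz2, Cd74, Apoe and Lgmn, which macrophages or dendritic cells express. Lyz2, lysozyme of macrophages and neutrophils (chromosome 10, 117277331 to 117282321), was at 17.6, 22.1, 25.6 and 26.9 CPM in LN and 1862, 1878, 2057 and 2117 CPM in Hepa1-6. It rose 85.7-fold (log2 change 6.42, SE 0.13, edgeR adjusted p = 6.87e-13). Cd74, the MHC class II invariant chain, was at 130.005, 151, 137 and 149 CPM in LN and 5129, 4998, 4938 and 4559.9 CPM in Hepa1-6, a 34.6-fold rise. Apoe, a lipid carrier of macrophages (chromosome 7, 19696109 to 19699188), rose from 21.5, 21.2, 28.6 and 27.99 CPM to 606, 593, 664 and 659 CPM. Lgmn, a lysosomal protease, rose 19.3-fold, from 21.5 ± 1.38 to 417 ± 17.9 CPM. A level of 10 CPM in LN did not keep such genes out. The groups lay far apart for each of them.

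The other 11 genes of this set have a range of roles. Bhlhe40, a stress-responsive transcription factor of activated T cells (chromosome 6, 108660629 to 108666925), was at 74.1, 64.5, 76.7 and 74.7 CPM in LN and 1746, 1764, 1789 and 1712 CPM in Hepa1-6. It rose 24.2-fold (log2 change 4.60, SE 0.06, edgeR adjusted p = 4.80e-18), and its level in E.G7 was 1733 and 1616 CPM, next to the Hepa1-6 values. Nfil3, another activation-linked factor, was at 15.3, 18.8, 12.4 and 16.5 CPM in LN and 306, 303, 294 and 308 CPM in Hepa1-6. Ccr2, a chemokine receptor of tissue-homing Treg cells and monocytes (chromosome 9, 124101950 to 124113557), rose from 27.3, 30.9, 27.98 and 28.6 CPM to 516, 514, 559 and 545 CPM. Fgl2, a secreted suppressor protein of Treg cells that macrophages also make, rose 19.2-fold. Fosl2, an AP-1 subunit, and Errfi1, an inhibitor of growth factor receptors, rose 19.6-fold and 18.7-fold. Litaf, a lysosomal membrane protein, rose 19.03-fold, though its exons overlap those of Snn. The fat-droplet gene Plin2 and the annexins Anxa4 and Anxa2 rose 21.5-, 24.3- and 18.4-fold. Slc16a3, whose promoter is shown above (chromosome 11, 120948480 to 120960868), rose from 10.1, 12.8, 11.3 and 10.2 CPM to 303, 302, 286 and 283 CPM, with exons that overlap Csnk1d. All 4 Hepa1-6 libraries exceeded all LN libraries for each of the 15 genes, as the rule requires. Apart from Bhlhe40, each of the 15 was lower in both E.G7 libraries than in every Hepa1-6 library, and the macrophage and neutrophil marker sum was 874 to 889 CPM in E.G7. Anxa4 was at 40.3 ± 0.457 CPM in E.G7 against 329 ± 6.89 CPM in Hepa1-6, Plin2 at 84.6 ± 6.58 against 392 ± 13.9 CPM, and Slc16a3 at 83.6 ± 1.40 against 294 ± 10.3 CPM (SD, n = 2 and 4). Errfi1, Fgl2 and Ccr2 were at 71.2 ± 1.999, 157 ± 2.45 and 193 ± 9.28 CPM in E.G7, against Hepa1-6 means of 243, 503 and 533 CPM. Nfil3 was at 224 ± 5.36 and Fosl2 at 137 ± 10.6 CPM, closer to Hepa1-6. The part of the macrophage marker difference in these values was not tested.

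The 15 largest falls included Bcl2, Pik3ip1 and Gata1. Bcl2, which blocks cell death (chromosome 1, 106538178 to 106714274), was at 514, 444, 537 and 503 CPM in LN and 45.97, 47.8, 44.4 and 48.6 CPM in Hepa1-6. It fell 10.7-fold (log2 change -3.42, SE 0.06, edgeR adjusted p = 2.35e-16). Pik3ip1, an inhibitor of PI3 kinase (chromosome 11, 3330401 to 3342971), fell from 236, 229.8, 236 and 236 CPM to 23.3, 21.8, 19.8 and 25.6 CPM. Nsg2, a membrane protein best known from neurons (chromosome 11, 32000463 to 32059202), fell from 165, 169, 164 and 164 CPM to 11.4, 7.19, 9.24 and 12.9 CPM, and Slc28a2b, a nucleoside transporter, from 102 ± 6.53 to 5.03 ± 0.501 CPM. Gata1, an erythroid transcription factor, fell from 35.6, 38.9, 38.3 and 44.9 CPM to 1.88, 2.40, 2.64 and 3.55 CPM. Gucy1a1, a subunit of the nitric oxide receptor, was at 23.4, 24.3, 26.97 and 27.3 CPM in LN and 0.408, 2.32, 0.618 and 0.536 CPM in Hepa1-6, where replicate 2 stood above the others; its log2 change was -4.71, and -5.60 without that library. The rest were Slc16a5, Rec8, Sorcs2, Gabrr2, Rapgef4, Arhgap20, Dzip1, Slc7a10 and Kcnip2, with log2 changes from -4.56 to -3.41. The LN and Hepa1-6 libraries did not overlap for any of the 15, as the rule requires.

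**Figure D3:**
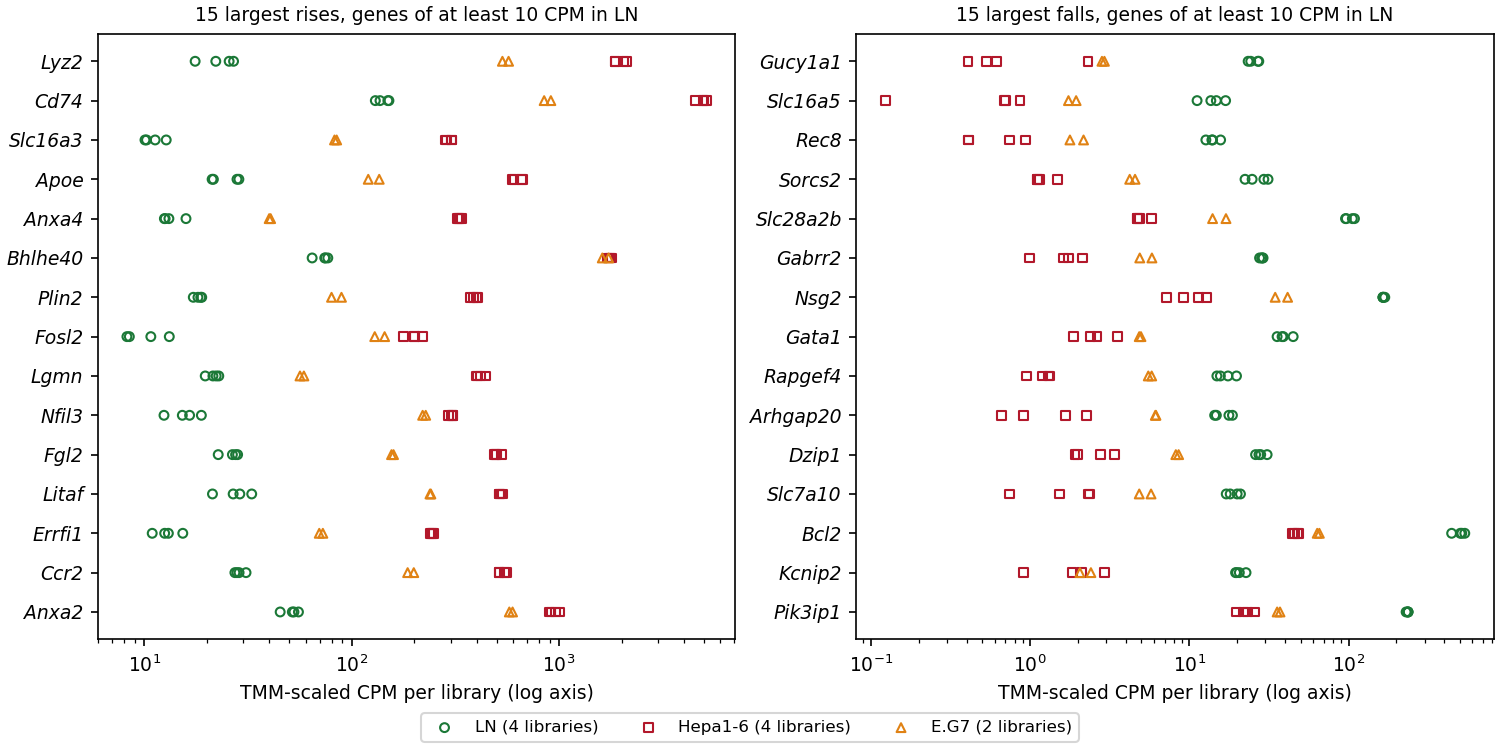
TMM-scaled CPM per library (log axis) of the 15 largest rises (left) and falls (right) among genes of at least 10 CPM in LN. The LN circles and Hepa1-6 squares do not overlap for any gene, as the rule that chose the genes requires. For Bhlhe40 the E.G7 triangles lie at 1733 and 1616 CPM, next to the Hepa1-6 squares.

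Within the well expressed genes, functional lists were described by their calls, read against 34.0% higher and 41.5% lower in the class. The class itself moved with scaling: 2223 of its 8763 genes rose and 4639 fell with upper-quartile scaling. With T cell gene scaling 4931 rose and 1794 fell. List counts under these scalings are to be read against those numbers. Glycolysis, lysosome, annexin and S100, chaperone, proteasome, respiratory chain and cell division genes were mostly higher with TMM scaling. Zinc finger, T cell receptor signalling and resting-state genes were mostly lower with it. Several lists had no clear balance. Counts are given as higher, lower and not called, and each count is over members of at least 10 CPM in LN.

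**Figure D4:**
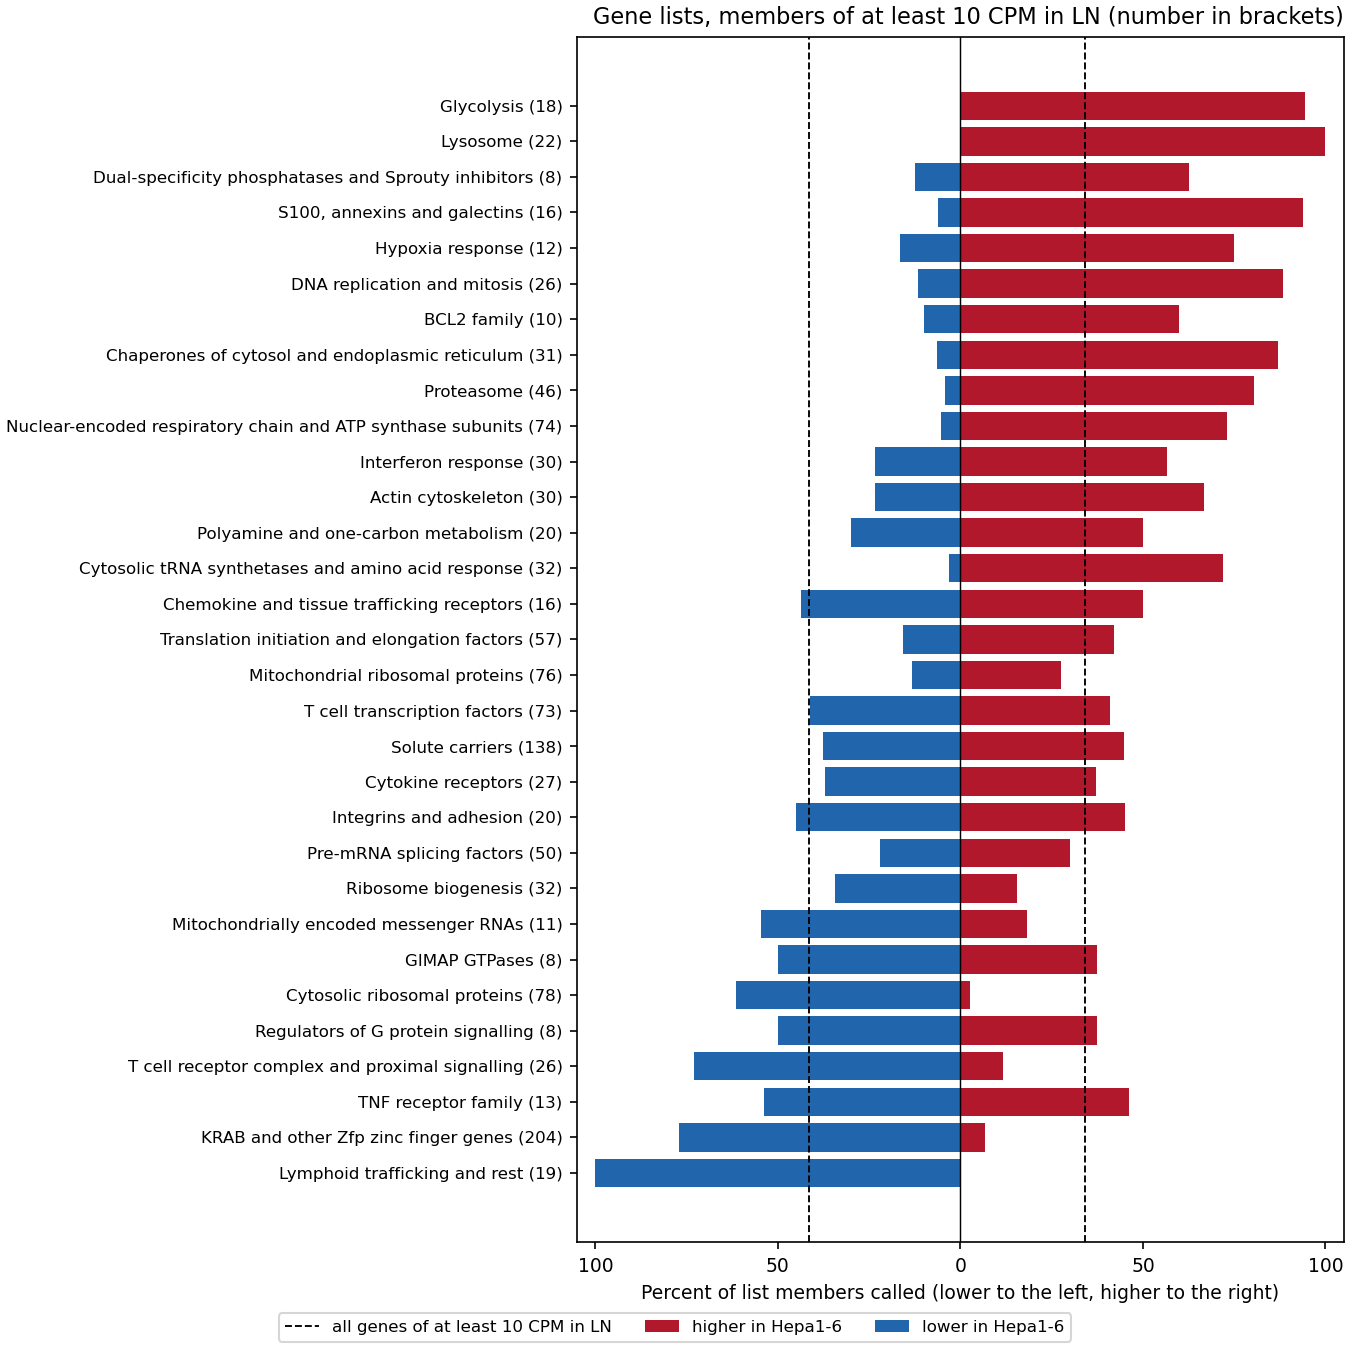
Percent of each list's members (at least 10 CPM in LN, number in brackets) called lower, drawn to the left, and higher, drawn to the right, ordered by median change; dashed lines mark 34.0% higher and 41.5% lower for all 8763 genes of the class. All 22 lysosome genes lie to the right and all 19 lymphoid trafficking and rest genes to the left.

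Genes of sugar use rose. Of 18 glycolysis genes 17 rose and 1, Pfkm, was not called, with a median of 1.68, and of 12 hypoxia response genes 9 rose and 2 fell (median 1.11). Pkm, the last enzyme of glycolysis (chromosome 9, 59656368 to 59679375), was at 747, 848, 759.99 and 882 CPM in LN and 3278, 3178, 3234 and 3183 CPM in Hepa1-6. Ero1l, an oxidoreductase that folds secreted proteins, rose 9.18-fold and was the largest rise among those 12. Pdk1, a kinase that limits pyruvate entry into mitochondria, fell from 194, 185, 185 and 189 CPM to 132, 125, 126 and 128 CPM, against the direction of most of its list. Genes of respiration were counted apart by the genome that encodes them. Of 74 nuclear genes for respiratory chain and ATP synthase subunits 54 rose and 4 fell (median 0.36), with 31 and 10 under upper-quartile scaling and 70 and 1 under T cell gene scaling. One that rose was Atp5b, from 1033 ± 48.6 to 1525 ± 70.2 CPM. Of 11 messenger RNAs made in mitochondria 2 rose and 6 fell (median -0.18), a balance that turned to 5 higher and 3 lower with T cell gene scaling. One of them, mt-Cytb, fell from 3853, 3836, 3661 and 3544 CPM to 2364, 2095, 2205 and 2365 CPM.

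Lysosome and calcium-binding genes rose, in the libraries where the macrophage marker sum was 4423 to 4781 CPM against 46.7 to 65.4 CPM in LN. All 22 lysosome genes rose (median 1.67), as did 15 of 16 S100, annexin and galectin genes (median 1.19), with Lgals4 the exception. Ctsb, a lysosomal protease (chromosome 14, 63122462 to 63145923), was at 399.9, 433, 364 and 431 CPM in LN and 2102, 2100.4, 2256 and 2170.3 CPM in Hepa1-6. Its exons overlap Fdft1. Anxa6, the S100, annexin and galectin member of highest level over both groups together, rose by 0.22 only, from 584 ± 32.3 to 680.04 ± 5.94 CPM. Of 30 actin cytoskeleton genes 20 rose and 7 fell (median 0.32; 24 and 2 with T cell gene scaling), with Gsn, which cuts actin filaments, at 35.5, 29.9, 33.8 and 36.4 CPM in LN and 232, 248, 257 and 262 CPM in Hepa1-6, and Actn1, a filament cross-linker, at 70.8, 73.8, 72.4 and 69.5 and 15.4, 12.9, 13.2 and 12.04 CPM. Macrophages express lysosome, annexin and Gsn genes as well; the part of the macrophage marker change in these counts was not tested.

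Protein folding and turnover genes rose by smaller steps. Of 46 proteasome genes 37 rose and 2 fell (median 0.43; 30 and 6 with upper-quartile scaling), and of 31 chaperones 27 rose and 2 fell (median 0.67). Hspa8, the constitutive Hsp70 chaperone, was at 1936, 2076, 1835 and 2099.9 CPM in LN and 2965, 2851, 3004 and 3048 CPM in Hepa1-6. P4hb, protein disulfide isomerase of the endoplasmic reticulum, rose 3.73-fold, while Dnajb1, a heat shock co-chaperone, fell from 432 ± 11.2 to 331 ± 12.8 CPM. Psma5, a core proteasome subunit, rose by 1.03 on the log2 scale, and Psmg1, an assembly factor, fell by 0.66. Of 32 tRNA synthetase and amino acid response genes 23 rose and 1 fell (median 0.29), with 14 and 4 (median 0.11) under upper-quartile scaling and 32 and 0 under T cell gene scaling. Slc3a2, the shared chain of amino acid transporters, was at 198, 198, 189.9 and 214 CPM in LN and 665, 666, 701 and 675 CPM in Hepa1-6.

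Genes of the ribosome depended on scaling, as the whole class of well expressed genes did. Of 78 cytosolic ribosomal protein genes 2 rose and 48 fell (median -0.33), but with T cell gene scaling 22 rose and 9 fell (median 0.05). Rpl4 was at 1897, 2122, 1766 and 1901 CPM in LN and 1325, 1223, 1242 and 1425 CPM in Hepa1-6. Of 32 ribosome biogenesis genes 5 rose and 11 fell (median -0.09), turning to 19 and 3 with T cell gene scaling, and of 76 mitochondrial ribosomal protein genes 21 rose and 10 fell (median 0.09), turning to 14 and 24 with upper-quartile scaling and 63 and 1 with T cell gene scaling. Of 57 translation factors 24 rose and 9 fell (median 0.13), with 18 and 17 (median -0.05) under upper-quartile scaling and 49 and 2 under T cell gene scaling. Eif4ebp1, an inhibitor of translation start, rose 6.75-fold, from 11.5, 13.3, 12.4 and 13.6 CPM to 82.9, 85.3, 86.4 and 88.5 CPM, and its relative Eif4ebp2 fell by 0.88 on the log2 scale. Of 50 splicing factors 15 rose and 11 fell (median 0.02), which turned to 9 and 26 with upper-quartile scaling and 44 and 2 with T cell gene scaling.

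Division genes rose, while 2 G1 cyclins and a cell cycle inhibitor fell. Of 26 replication and mitosis genes 23 rose and 3 fell (median 1.05); over all 44 list members at any LN level 41 were called higher. Ccna2, a cyclin of S phase and mitosis, rose from 12.6, 9.79, 9.47 and 14.1 CPM to 55.2, 55.3, 62.5 and 62.7 CPM. Cdkn1b, an inhibitor of cell cycle entry, fell from 138, 131, 131 and 139 CPM to 63.8, 76.6, 72.8 and 83.5 CPM, and Ccnd2, a G1 cyclin, by 0.54 on the log2 scale. The third that fell was Ccnd3 (log2 change -0.48, named after its values were seen). Division genes are shared by every dividing cell, and tumour cells divide; the part of the hepatoma marker change was not tested.

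Most zinc finger genes fell. Of 204 genes with Zfp symbols, many of them KRAB repressors of transposons, 157 (77.0%) fell, 14 (6.86%) rose and 33 were not called (median -0.76). With upper-quartile scaling 173 fell and 9 rose, and with T cell gene scaling 124 fell and 37 rose. Longer genes fell more often: over all 8763 genes, 34.1% of the shortest quartile by exon length and 50.02% of the longest were lower, with medians of 0.05 and -0.19. In each quartile 73.3% to 80.0% of the Zfp genes were lower. Zfp974 was at 11.1, 10.98, 13.2 and 8.50 CPM in LN and 1.76, 1.74, 0.701 and 1.53 CPM in Hepa1-6. Zfp36, an RNA-binding protein that speeds decay of cytokine messages and no KRAB protein, rose from 566, 539, 563 and 575 CPM to 1857, 1788, 1713 and 1654 CPM. Zfp622 rose as well, but its 4 Hepa1-6 values, 96.4, 46.6, 33.9 and 25.6 CPM, spread widely.

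**Figure D5:**
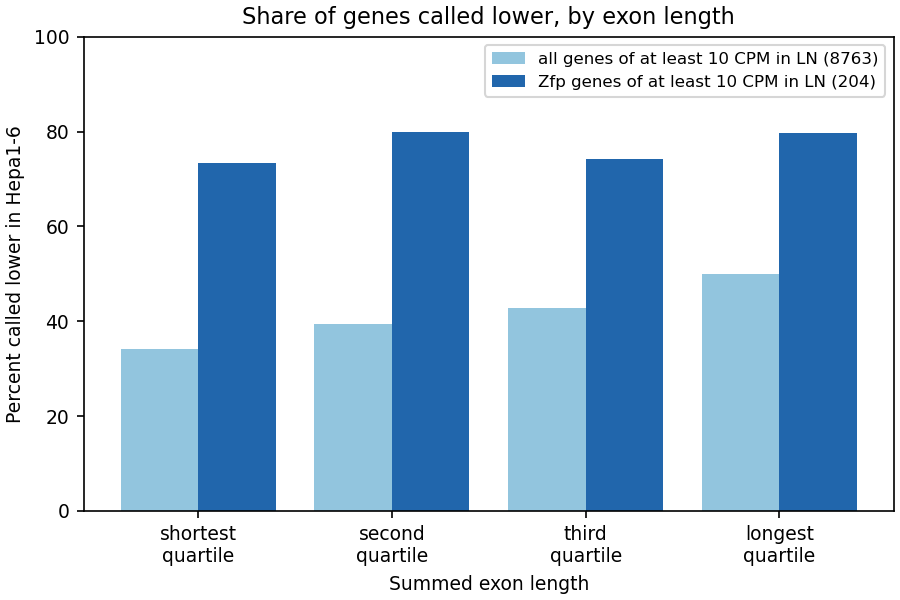
Percent of genes called lower in Hepa1-6 by quartile of summed exon length, for all 8763 genes of at least 10 CPM in LN (light bars) and 204 Zfp genes (dark bars). The light bars go from 34.1% to 50.02%, and the dark bars lie between 73.3% and 80.0%.

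T cell receptor signalling genes were mostly lower. Of 26 genes of the receptor complex and its proximal kinases 19 fell and 3 rose (median -0.49), and with T cell gene scaling, which uses some of the same genes, 13 fell and 8 rose. Prkcq, the kinase PKC-theta (chromosome 2, 11172108 to 11301222), was at 526, 515, 547 and 555 CPM in LN and 133, 132, 134 and 132 CPM in Hepa1-6. Ptpn22, a phosphatase that damps the receptor, rose from 524 ± 21.6 to 677 ± 32.8 CPM. The receptor chains did not move together, as seen in their constant regions, named after their values were seen. Trbc1 was at 493, 566, 463 and 494 CPM in LN and 198, 195, 208 and 219.98 CPM in Hepa1-6, and Trbc2 at 1159.9 ± 77.8 and 444 ± 25.3 CPM. Both fell, while Trac, the alpha chain constant region, was at 991, 1079, 968 and 1024 and 1078, 1025, 1058 and 1086 CPM and was not called (edgeR adjusted p = 0.197). Trbc1 and Trbc2 are near-identical copies, so the split of reads between them is uncertain, though both moved one way. All 18 antigen receptor variable segments and all 8 joining segments well expressed in LN fell, with medians of -1.36 and -1.25.

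Receptors and factors that set where Treg cells go and how they signal moved in both directions. All 19 lymphoid trafficking and rest genes fell (median -1.40). Of 16 chemokine and tissue receptors 8 rose and 7 fell, and 9 rose and 4 fell with T cell gene scaling. Ccr8, a marker of tumour Treg cells, rose from 93.5, 98.1, 98.2 and 102 CPM to 722, 723, 685 and 638 CPM, and Gpr83, a receptor of resting Treg cells, fell from 218, 220.2, 207 and 229 CPM to 25.7, 22.9, 26.3 and 21.3 CPM. Of 13 TNF receptor genes 6 rose and 7 fell, with Tnfrsf9 (4-1BB) up 7.57-fold and Tnfrsf25 (DR3) down 4.40-fold. Of 27 cytokine receptor genes 10 rose and 10 fell, turning to 17 and 6 with T cell gene scaling and 9 and 14 with upper-quartile scaling. Il1r2, a decoy receptor, was at 78.8 ± 5.02 and 319.9 ± 11.97 CPM, and Il6ra at 339.6 ± 14.4 and 71.9 ± 1.85 CPM. Among 20 integrin and adhesion genes 9 rose and 9 fell, turning to 13 and 6 with T cell gene scaling. Itgav, the alpha V integrin, rose 8.46-fold. Of 73 T cell transcription factors 30 rose and 30 fell, turning to 43 and 13 with T cell gene scaling and 28 and 36 with upper-quartile scaling. Tcf7, a factor of resting T cells, fell from 367, 362, 354 and 365 CPM to 53.2, 52.6, 45.9 and 40.9 CPM.

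The remaining lists are given by their counts. Of 10 BCL2 family genes 6 rose and 1, Bcl2, fell. Of 8 dual-specificity phosphatases and Sprouty inhibitors 5 rose and 1 fell, and Dusp5, which switches off ERK, rose from 12.8, 14.6, 13.4 and 12.3 CPM to 277, 161, 155 and 132 CPM. Of 8 RGS genes, which shorten G protein signals, 3 rose and 4 fell: Rgs16 rose 8.49-fold and Rgs10 fell 3.10-fold. Of 8 GIMAP GTPases 3 rose and 4 fell (1 and 5 with upper-quartile scaling), with Gimap7 rising by 0.69 and Gimap3 falling from 1586 ± 57.8 to 945 ± 15.9 CPM. Of 30 interferon response genes 17 rose and 7 fell (median 0.33), with 24 and 2 under T cell gene scaling; Ly6a, an interferon-induced surface protein of T cells, rose 6.86-fold and Irf9, a subunit of the interferon-activated factor ISGF3, fell by 0.92 on the log2 scale, with exons that overlap Rnf31. Of 138 solute carriers 62 rose and 52 fell, turning to 84 and 28 with T cell gene scaling and 51 and 64 with upper-quartile scaling. Of 20 polyamine and one-carbon genes 10 rose and 6 fell, and 15 and 0 with T cell gene scaling. Smox, spermine oxidase, rose from 27.3, 22.2, 24.2 and 24.4 CPM to 155, 151, 157 and 135 CPM.

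Long noncoding RNAs well expressed in LN, sorted by RefSeq gene type and named after their values were seen, were mostly lower. Of 131 such genes 96 (73.3%) were lower and 20 (15.3%) higher (median -0.89), against 40.3% and 34.9% of 8237 protein-coding genes. Flicr, which overlaps Foxp3, was at 14.8 ± 1.46 CPM in LN and 2.92 ± 0.515 CPM in Hepa1-6 (SD, n = 4). Kantr fell from 37.7 ± 1.499 to 14.8 ± 1.5003 CPM. Neat1, the scaffold of nuclear paraspeckles, rose from 139 ± 26.4 to 358 ± 20.8 CPM.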

How the data were processed

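RNA sequencing of 10 Treg libraries was deposited by the authors as a table of whole-number read counts per gene (55291 genes), in the column layout of featureCounts per the file headers. The submitters' processing notes name HISAT2, featureCounts, Subread, RSEM and DESeq2 with build mm10; roles, versions and strand setting are not given in the sources used here. Deposited FPKM tables were not used here. Groups came from the sample titles. The deposited counts were fitted with edgeR 4.0.16 (R 4.3.3): filterByExpr (20068 genes), TMM scaling, 1 quasi-likelihood fit of all 10 libraries with group terms, robust settings, Benjamini-Hochberg adjustment over all genes tested and a threshold of 0.05. SE is the log2 change divided by the square root of F. The biological coefficient of variation was 13.0%. Fitted log2 changes use edgeR's default prior count and are no bound for genes near 0 in LN. Log2 CPM for the principal components and the pairing check used a prior count of 2. The fit was tested on simulated data. Within-group library pairs differed by more than sampling noise (chi-square per degree of freedom 7.41 to 18.9, 12 pairs).

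Genes named are the 15 largest rises and 15 largest falls of at least 10 CPM in LN without overlap between groups, the 10 highest in Hepa1-6 under 1 CPM in LN, the 5 largest rises of 1 to 10 CPM, the extremes and the highest member of each of 41 lists, the 10 most abundant with an interval within 0.2 log2, and 6 fixed genes. The rises of 1 to 10 CPM were also taken without overlap between groups and at 10 CPM or more in Hepa1-6. Predicted genes, pseudogenes and receptor segments were left out of this rule. Some genes and a list that the rule takes in are not reported here. The members and lists were chosen with earlier results of these data known. Promoters came from RefSeq (GRCm38.p6) and were scanned in Python. Alternatives were RLE, upper-quartile and T cell gene scaling, TMM over genes of at least 10 CPM in LN, other filters, DESeq2 1.42.0, limma-voom (limma 3.58.1), a fit of 2 groups with and without replicate blocks, a minimum change of 1.5-fold, other class limits and leaving out each replicate.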

Additional observations from a re-analysis of the deposited data

Results flagged for a closer look

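In groups of 4 libraries, the highest or lowest value was looked at for its gap to the nearest other value, set against the whole range of the group. Of 310 groups looked at, 11 had a library standing apart; chance alone gives about 1 in 20. In Hepa1-6, Gucy1a1 was at 2.32 CPM in replicate 2 (others 0.408 to 0.618), Sorcs2 at 1.48 CPM in replicate 3 (others 1.11 to 1.14), C1qb at 388 CPM in replicate 4 (others 366 to 369), Alb at 355 CPM in replicate 3 (others 374 to 376) and Slc1a5 at 466 CPM in replicate 4 (others 502 to 507). In LN, replicate 2 stood apart for Nsg2 (169 CPM, others 164 to 165), Pik3ip1 (229.8 CPM, others 235.8 to 236.4), Ptpn22 (492 CPM, others 532 to 538) and Pf4 (0.0771 CPM, others 0.0388 to 0.0401), and replicate 3 for Rps27l (26.5 CPM, others 30.5 to 31.2). The share of counts from genes under 1 CPM in LN was 3.53% in Hepa1-6 replicate 3 and 3.43% to 3.44% in the others. Leaving out any of these libraries left the calls of these genes in place.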

How the results depend on the processing

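For 147 named genes, 20 alternatives gave 2939 values. Of these, 2840 stayed on the same side of the threshold, 68 were no longer called and 15 became called. A further 16 changed sign and were called in the main fit, the alternative or both. A sign change in a gene called in neither was counted as no change. With upper-quartile scaling Akap13 (-0.18), Eef2 (-0.14), Tubb5 (-0.067) and Il2ra (-0.13) changed sign, each with a TMM value under 0.12. With T cell gene scaling Ly6e (0.38), Ucp2 (0.34), H2-Q7 (0.33), Rbm39 (0.31), Cytip (0.34), Wdr1 (0.38), Cd4 (0.084), Cd3e (0.11), Itgb7 (0.20), mt-Co1 (0.20), Mthfd2 (0.20) and Sf3b1 (0.18) changed sign. Of these, Cd4 and Cd3e are among the genes that set the scaling.

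T cell gene scaling gave 3489 genes lower in all, 4931 higher and 1794 lower at 10 CPM or more in LN, and 1244 lower at 1 to 10 CPM. A filter of 10 CPM in 4 libraries, which tests fewer genes, gave 4032 higher and 3909 lower in all, and 733 and 15 at 1 to 10 CPM. Testing against a 1.5-fold change gave 3095 lower in all, 1219 higher and 1388 lower at 10 CPM or more, and 1237 lower at 1 to 10 CPM. The median change at 10 CPM or more was -0.041 with RLE and with DESeq2, -0.25 with upper-quartile scaling, 0.31 with T cell gene scaling, -0.0081 with TMM over genes of that class, -0.10 without a filter, -0.11 with the 10 CPM filter, -0.081 in the fit of 2 groups, and -0.081 with a replicate block added to it. Leaving out 1 replicate gave -0.076 (without LN replicate 3) to -0.063, and 7097 to 7235 genes higher and 5869 to 6088 lower in all. The share of Hepa1-6 counts from low genes was 2.65% with a limit of 0.5 CPM, 4.43% with 2 CPM, 3.52% with the class from LN replicates 1 and 2, and 3.38% to 3.47% when a replicate was left out. The cause of these shifts was not tested.

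Same-numbered libraries of the groups did not deviate together (correlations of -0.0323 to 0.0287 over 4 pairs, and -0.038 to 0.0345 over the 12 others). With the replicate number as a block, 6532 genes were higher and 5795 lower. Depth limits calls under 1 CPM in LN, where 1 count is near the level that no count allows.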
